A study of Mus musculus with 4 samples.

Results

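A list of 9 abundant noncoding RNAs of mouse embryonic stem cells (ESCs) was compared between wild-type cells and a clone labelled as a CRISPR knockout of *Zfp296*, which encodes a zinc finger protein. They were chosen by name: the RNase MRP RNA *Rmrp*, the RNase P RNA *Rpph1*, the 7SK RNA *Rn7sk*, the telomerase RNA *Terc*, the long nuclear RNAs *Malat1* and *Neat1*, and the small nucleolar RNA (snoRNA) host genes *Gas5*, *Snhg1* and *Snhg3*. Of these 9 RNAs, 8 were matched to a row among 48526 gene rows, and 7 passed the filter on low counts together with 12883 genes in all. *Snhg3* did not pass it, and *Snhg1* was not analysed here because its annotated identifier could not be matched to a row.

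RNA-seq was available for 4 samples, 2 biological replicates of R1 ESCs (WT) and 2 of R1 ESCs of *Zfp296* CRISPR KO clone 2 (KO2). R1 is a mouse ESC line. Both groups were grown without feeder cells on gelatine in serum with LIF and the inhibitors PD0325901 and CHIR99021, and KO2 is a single clone derived after puromycin selection, so that an effect of the gene cannot be told apart from an effect of the clone. Ribosomal RNA was depleted from total RNA before strand-specific libraries were made, which leaves RNAs without a poly(A) tail in the library.

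Counts on genes summed to between 2829914 and 4334499 in WT and to between 7437294 and 7470907 in KO2, and WT replicate 1 was the shallowest. A count of 3 corresponded to between 0.38 and 1.12 CPM, where CPM are read counts relative to library size after scaling by the trimmed mean of M-values. The *Zfp296* transcript was at 11.6 and 7.33 CPM in WT and at 52.8 and 37.7 CPM in KO2, with a log2 fold change of 2.31 ± 0.28 (SE, edgeR's quasi-likelihood test, adjusted p = 4.5e-05). The count covers the whole gene and does not read an edit in the first exon, so it checks no label. Of 8 ESC markers, 7 did not pass the test in edgeR, with *Pou5f1* at 306 ± 46 and 324 ± 19 CPM and *Nanog* at 632 ± 89 and 737 ± 121 CPM in the WT and KO2 groups (SD, n = 2), and *Sox2* fell by 0.79 ± 0.10 on the log2 scale (edgeR, adjusted p = 7.8e-05). *Dppa5a*, at 0.35 ± 0.11 (SE, edgeR, adjusted p = 0.0669), passed with DESeq2 (adjusted p = 0.0275) and in 3 of the other alternatives. The 6 feeder fibroblast markers held at most 7 counts in any sample, with *Lum*, *Dcn* and *Postn* at 0. Protein-coding rows on chromosome Y held 0 and 1 counts in WT against 4782 and 5199 in KO2, a difference between the cell populations beyond the targeted gene.

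The RNAs belong to 3 functional groups. *Rmrp* and *Rpph1* are the RNA subunits of RNase MRP, which cuts precursor ribosomal RNA, and of RNase P, which removes the leader of precursor tRNA, and *Rn7sk* holds the elongation factor P-TEFb in an inactive particle with HEXIM and LARP7 proteins. These 3 RNAs are made by RNA polymerase III from promoters that lie upstream of the gene, with a proximal sequence element and a TATA box, whereas *Terc*, which templates the telomere repeat, is made by RNA polymerase II. *Malat1* gathers in nuclear speckles, *Neat1* builds paraspeckles, and *Gas5*, *Snhg1* and *Snhg3* carry snoRNAs in their introns.

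The sequences before the starts of the 3 polymerase III genes and of *Terc* are shown because the values of the first 3 RNAs were higher in both KO2 samples. They are the 100 bases before each annotated start on the transcribed strand of mm9, and capitals mark TCACC between bases -75 and -50 and TATA or ATAAA between bases -40 and -16, counted back from the start.
Rmrp: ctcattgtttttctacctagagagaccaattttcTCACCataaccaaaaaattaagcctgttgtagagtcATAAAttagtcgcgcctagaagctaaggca
Rpph1: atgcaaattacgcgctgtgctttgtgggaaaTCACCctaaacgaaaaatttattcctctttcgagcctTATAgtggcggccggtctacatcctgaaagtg
Rn7sk: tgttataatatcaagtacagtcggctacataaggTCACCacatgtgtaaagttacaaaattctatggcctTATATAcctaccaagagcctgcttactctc
Terc: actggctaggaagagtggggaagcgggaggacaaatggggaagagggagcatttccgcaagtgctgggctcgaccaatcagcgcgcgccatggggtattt
The stretches lie at chr4:43505931-43506030, chr14:51427443-51427542, chr9:78023441-78023540 and chr3:96218783-96218882, all on the minus strand. TCACC began at base -66 for *Rmrp*, -69 for *Rpph1* and -66 for *Rn7sk*, and the TATA letters began at -30, -32 and -30. *Terc* held neither set of letters in these windows, which are counted from its annotated start. Whether transcription of *Terc* begins at that base was not tested, and the windows would move with it. Over 37270 annotated genes, TCACC was present in its window for 2.19% on the transcribed strand and 4.39% on either strand, the TATA letters for 9.04% and 10.8%, and both together for 0.191% and 0.445%. TATA reads the same on both strands, and the letters of the 2 windows cannot overlap. The letters were chosen after the sequences had been seen and are a description of these windows. Among the other 68 genes with both sets of letters on the transcribed strand, 16 were tested, 0 passed in edgeR or in DESeq2 at an adjusted p of 0.05 (5 at an unadjusted p under 0.05 in edgeR), and their median log2 fold change was 0.03. Of these 16 genes, 1 is annotated as a small RNA, the *U12* row. The letters thus do not single out polymerase III genes, and an effect on such promoters was not tested.

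*Rn7sk* was the member that rose most in KO2. The gene (ENSMUSG00000065037, chr9:78023110-78023440, minus strand, a single exon of 331 bases) held 2765 and 5721 counts in the WT replicates against 22872 and 13482 in the KO2 replicates. Scaled for depth, it was at 1030 and 1352 CPM in WT, against 2900 and 1802 CPM in KO2. Both KO2 samples lay above both WT samples, with the lower KO2 value 1.33-fold above the higher WT value. The log2 fold change was 0.98 ± 0.16 (SE, edgeR, adjusted p = 0.001), or 1.97-fold. The replicates differed 1.31-fold in WT and 1.61-fold in KO2. In bulk RNA, fewer cells of a kind and less RNA per cell cannot be told apart. Its share of all gene counts went from 0.0977% (95% Wilson interval 0.0941 to 0.101) and 0.132% (0.129 to 0.135) in WT to 0.306% (0.302 to 0.310) and 0.181% (0.178 to 0.184) in KO2. These intervals cover counting error only, and they are narrower than the spread between replicates. In rank among all gene rows by counts, *Rn7sk* stood 88th and 45th in WT and 9th and 25th in KO2.

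The 5′ end of 7SK RNA is shown because it is the stretch that binds HEXIM, through repeats of the letters GATC, which are marked in capitals in the first 80 bases (chr9:78023361-78023440).
Rn7sk: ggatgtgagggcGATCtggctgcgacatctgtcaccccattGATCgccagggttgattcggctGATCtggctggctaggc
GATC, which reads the same on both strands, began at bases 13, 42 and 64. Of 36282 annotated genes, 0.179% held it at least 3 times in their first 80 bases.

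*Rpph1* rose less. This RNA (ENSMUSG00000092837, chr14:51427124-51427442, minus strand, a single exon between *Ccnb1ip1* and *Parp2*) was at 1597 and 2548 CPM in WT and at 4016 and 2738 CPM in KO2. The groups did not overlap, but the lower KO2 value was 1.07-fold above the higher WT value. The log2 fold change was 0.70 ± 0.17 (SE, edgeR, adjusted p = 0.0209), or 1.63-fold. Its share of gene counts was 0.151% and 0.249% in WT against 0.424% and 0.275% in KO2.

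The annotation holds 18 further loci of the RNase P RNA family, of which 3 had counts, and together they held 21% to 27.1% of the *Rpph1* count in WT and 20.6% to 21.8% in KO2. The most counted of them (ENSMUSG00000088025, chr8:3803069-3803358, minus strand) was identical to *Rpph1* at 246 of 279 aligned bases. Reads that fit both loci equally well are left out by HTSeq as placed at several sites. The first 80 bases of both are shown as an example of how the loci differ, and capitals mark the 6 positions that differ. Where along the loci such reads arise was not tested.
Rpph1: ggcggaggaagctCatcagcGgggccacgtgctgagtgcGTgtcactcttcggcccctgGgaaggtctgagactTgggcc
RNase P copy: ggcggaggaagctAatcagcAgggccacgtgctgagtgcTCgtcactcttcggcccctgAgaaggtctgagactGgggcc
The stretches lie at chr14:51427363-51427442 and chr8:3803279-3803358. The copy was at 419 and 521 CPM in WT and at 851 and 547 CPM in KO2, with a log2 fold change of 0.57 ± 0.15 (SE, edgeR, adjusted p = 0.0359). This call was lost in 8 of 13 alternatives, among them DESeq2 (adjusted p = 0.516) and the fit without KO2 replicate 1, where the value was 0.22 (edgeR, adjusted p = 0.495). Its ratio to *Rpph1* was 26.2% and 20.4% in WT against 21.2% and 20% in KO2, highest in WT replicate 1. By CPM, the order of the 4 samples was that of *Rpph1* itself. How many reads of the copy come from *Rpph1* was not tested. *Rn7sk* has 330 further annotated loci, and those with counts summed to only 2.02% to 3.94% of its own count.

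*Rmrp* did not pass the test. It (ENSMUSG00000088088, chr4:43505660-43505930, minus strand) was at 2093 and 3953 CPM in WT and at 4307 and 3968 CPM in KO2. The KO2 values lay above the WT values, but WT replicate 2 and KO2 replicate 2 differed by less than 1%, with a ratio of 1.004. The log2 fold change was 0.45 ± 0.18 (SE, edgeR, adjusted p = 0.163). Of its 271 bases, 124 overlap *Ccdc107* on the opposite strand, and reads from the pair cannot be told apart unless counting used strand, which the sources used here do not state.

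WT replicate 1 held the lowest value of all 3 polymerase III RNAs. WT replicate 2 was 1.89-fold above it for *Rmrp*, 1.60-fold for *Rpph1* and 1.31-fold for *Rn7sk*. Without WT replicate 1, the log2 fold changes were 0.07 for *Rmrp*, 0.41 for *Rpph1* and 0.80 for *Rn7sk* (edgeR, adjusted p = 0.861, 0.348 and 0.121), and 0 members passed (2 at an unadjusted p under 0.05). Without KO2 replicate 1, the values were 0.39, 0.40 and 0.60. That fit holds 1 KO2 sample, so it does not measure the spread within KO2. With DESeq2 the adjusted p was 0.519 for *Rpph1* and 0.159 for *Rn7sk*, and with scaling to the ERCC spike-ins it was 0.702 and 0.304 in edgeR. The direction of all 3 held under the 13 alternatives, with log2 fold changes from 0.07 to 0.98 for *Rmrp*, 0.40 to 1.08 for *Rpph1* and 0.60 to 1.28 for *Rn7sk*.

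Across the 7 tested members, 2 were called and both were higher in KO2, against 5.64% of all tested genes called, 2.61% called higher and 3.04% called lower. The share called higher over all genes was 3.69% with the replicate number as a block, 1.67% with DESeq2, 0.851% without WT replicate 1, 0.699% with ERCC scaling and 0.114% without a filter, and in the last 4 of these settings 0 of the members were called. At an unadjusted p under 0.05 there were 5 members in edgeR, 3 with DESeq2, 2 without WT replicate 1, 1 with ERCC scaling and 4 without a filter, against 19.4%, 13.5%, 16.9%, 9.17% and 10.1% of all genes tested in these settings. Both KO2 samples lay above both WT samples for 3 members (25.4% of all tested genes) and below both for 2 members (23.4% of all tested genes), so that a lack of overlap was common in these data.

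**Figure D1:**
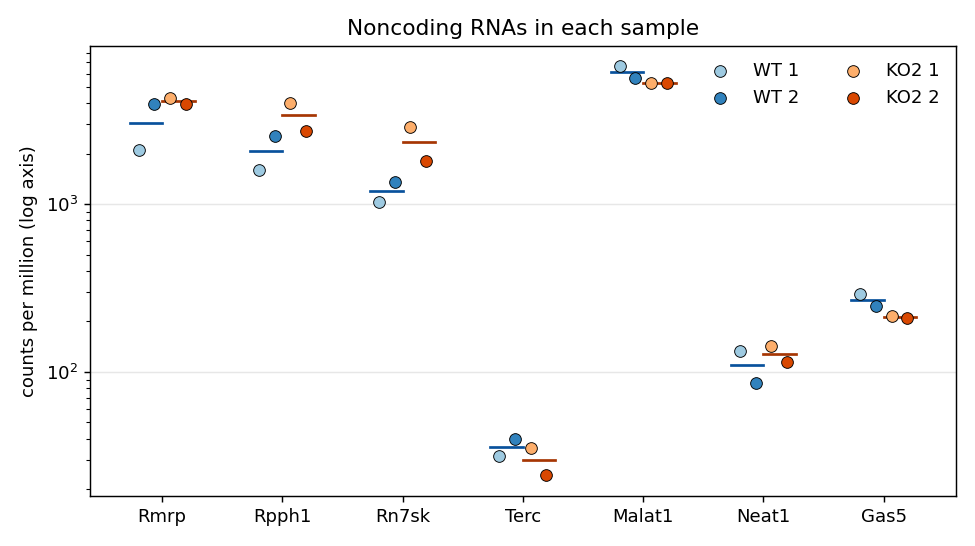
CPM of the 7 tested noncoding RNAs in each sample on a log axis, with points for samples and short bars for the mean of each group. *Rn7sk* and *Rpph1* lay higher in both KO2 samples, WT replicate 1 was the lowest sample for *Rmrp*, *Rpph1* and *Rn7sk*, and *Malat1* and *Gas5* lay lower in both KO2 samples.

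Ratios within a sample do not depend on scaling. *Rn7sk* counts per *Rpph1* count were 0.645 and 0.531 in WT and 0.722 and 0.658 in KO2, so that *Rn7sk* was higher relative to *Rpph1* in both KO2 samples. *Rpph1* per *Rmrp* was 0.763 and 0.645 in WT and 0.932 and 0.690 in KO2, and *Rn7sk* per *Rmrp* was 0.492 and 0.342 in WT and 0.673 and 0.454 in KO2, and for both ratios the groups overlapped. Relative to *Malat1*, *Rn7sk* was at 0.156 and 0.238 in WT and at 0.551 and 0.343 in KO2.

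*Malat1*, the most counted member, was lower in KO2 by less than the test could call. The gene (ENSMUSG00000092341, chr19:5795690-5802671, minus strand) ranked 6th and 6th by counts in WT against 4th and 6th in KO2. It was at 6621 and 5680 CPM in WT and at 5259 and 5252 CPM in KO2, with both KO2 values below both WT values and a log2 fold change of -0.23 ± 0.10 (SE, edgeR, adjusted p = 0.233). Its share of gene counts was 0.628% and 0.555% in WT against 0.555% and 0.528% in KO2.

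*Neat1* lies 22036 bases from *Malat1* in the annotation (ENSMUSG00000092274, chr19:5824708-5845478, minus strand) and had values of the other sign. It was at 134 and 86.2 CPM in WT and at 142 and 115 CPM in KO2. The groups overlapped, and the log2 fold change was 0.24 ± 0.17 (SE, edgeR, adjusted p = 0.492). It was -0.06 without WT replicate 2. *Malat1* counts per *Neat1* count were 49.5 and 65.9 in WT and 37.0 and 45.7 in KO2, lower in both KO2 samples.

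*Terc* (ENSMUSG00000064796, chr3:96218360-96218782, minus strand) was the rarest of the structural RNAs, with 84 and 168 counts in WT against 277 and 181 in KO2. It was at 31.3 and 39.7 CPM in WT and at 35.1 and 24.2 CPM in KO2, and the groups overlapped. The log2 fold change was -0.27 ± 0.23 (SE, edgeR, adjusted p = 0.561). Its first 80 bases (chr3:96218703-96218782) are shown because they hold the template of the telomere repeat, CTAACCC, in capitals.
Terc: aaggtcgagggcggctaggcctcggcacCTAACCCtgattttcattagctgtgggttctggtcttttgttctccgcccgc
The 7 letters stand at bases 29 to 35, and 0.27% of 36282 annotated genes held them in their first 80 bases on the transcribed strand and 0.526% on either strand.

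Of the snoRNA host genes, *Gas5* (ENSMUSG00000053332, chr1:162964553-162968670, plus strand) was at 291 and 247 CPM in WT and at 216 and 209 CPM in KO2. Both KO2 values lay below both WT values, and the log2 fold change was -0.34 ± 0.12 (SE, edgeR, adjusted p = 0.11). *Malat1* counts per *Gas5* count were nearly level, at 22.7 and 23.0 in WT and 24.4 and 25.1 in KO2. *Snhg3* held 1 and 1 counts in WT against 0 and 3 in KO2, no more than the floor of 3 counts in any sample. Only 135 of its 986 exon bases are free of other annotated genes, since *Rcc1* and *Snora73a* overlap it on the same strand and *Gm17300* on the opposite strand, and reads in shared bases are counted as ambiguous or for another gene. The 19 annotated snoRNAs inside *Gas5*, *Snhg1* and *Snhg3* held 0 counts in all 4 samples, so the counts give no reading of the snoRNAs that these hosts carry.

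**Figure D2:**
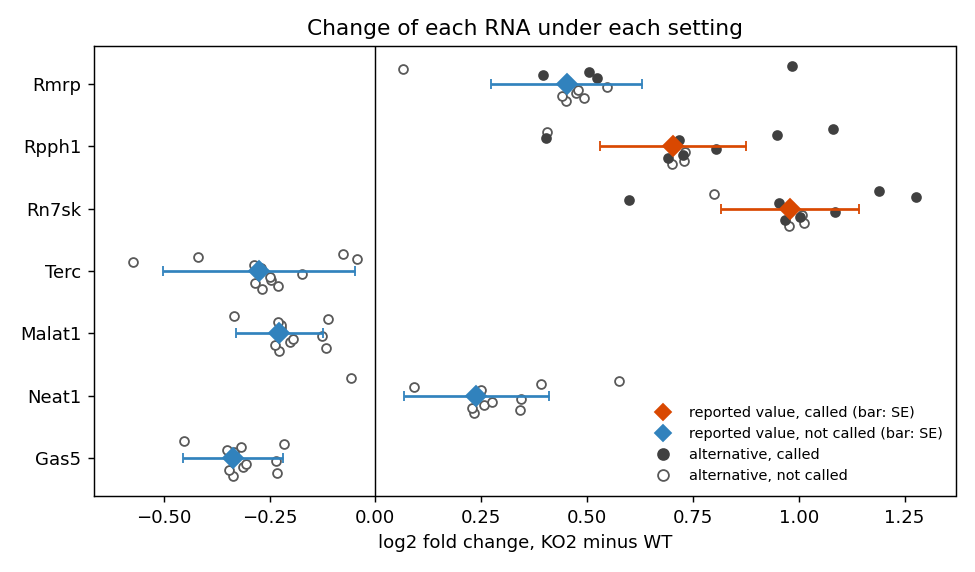
Log2 fold change (KO2 minus WT) of each tested RNA as reported, with its SE, and under 13 alternatives, with filled points for those that passed an adjusted p of 0.05. The values of *Rn7sk* and *Rpph1* were above 0 under every alternative but were not called under 4 of them, and those of *Malat1*, *Gas5* and *Terc* were below 0 under every alternative and never called.

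The 8 matched RNAs together held 1.12% and 1.36% of gene counts in WT against 1.78% and 1.42% in KO2. The mean share was 1.24% ± 0.17 in WT and 1.60% ± 0.26 in KO2 (SD, n = 2), a difference of 0.362 percentage points, and in an exact two-sided permutation test p was 0.333, the smallest value that 2 samples against 2 can give. *Rmrp*, *Rpph1* and *Rn7sk* made up 0.448% and 0.767% in WT against 1.18% and 0.856% in KO2, so the higher sum in KO2 lay in these 3 RNAs. With reads outside genes and ambiguous reads in the denominator the summed share was 0.752% and 0.939% in WT against 1.30% and 0.928% in KO2, and the groups overlapped.

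**Figure D3:**
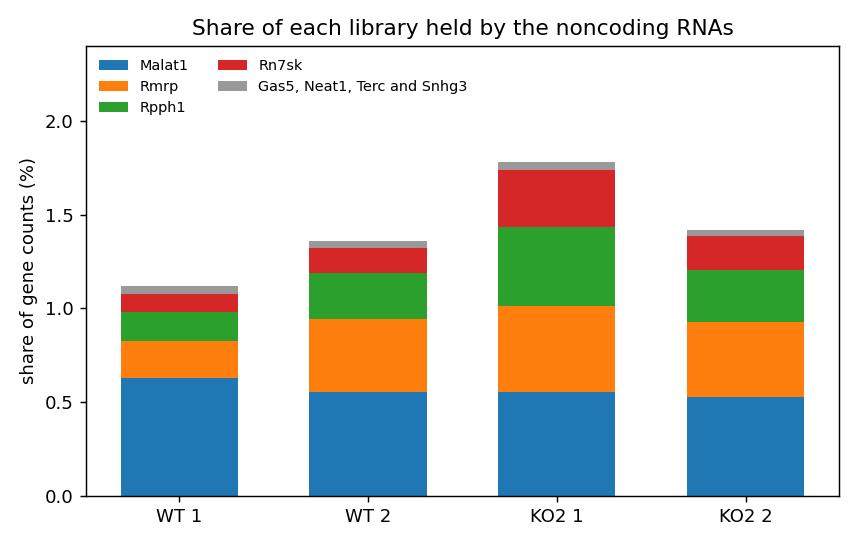
Share of all gene counts (%) held by the noncoding RNAs in each sample, stacked by RNA. The total ran from 1.12% in WT replicate 1 to 1.78% in KO2 replicate 1, and *Malat1* held between 0.528% and 0.628% in every sample.

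Per length, the level of *Rmrp* was highest, with 13212 CPM per kilobase of exon as the mean of the 4 samples, followed by *Rpph1* at 8542, *Rn7sk* at 5351, *Malat1* at 817, *Terc* at 77.0, *Gas5* at 64.0 and *Neat1* at 5.74. The ranges over samples of *Rmrp* and *Rpph1*, of *Rpph1* and *Rn7sk*, and of *Terc* and *Gas5* overlapped, although within each sample *Rmrp* exceeded *Rpph1* and *Rpph1* exceeded *Rn7sk* in 4 of 4. *Terc* exceeded *Gas5* in 3 of 4 samples, and with the longest annotated *Gas5* transcript in place of all merged exons *Gas5* stood at 94.2 CPM per kilobase, above *Terc*. *Malat1* thus took the largest share of counts but lay well below the polymerase III RNAs per length.

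Other short noncoding RNAs were measured for comparison, in classes chosen after values had been seen. Of 116 tested noncoding genes with exons of at most 400 bases, members left out, 17 were called higher in KO2 and 0 lower (2.61% and 3.04% of all tested genes), with a median log2 fold change of 0.57 against 0.01 over all tested genes. The annotated snoRNAs held 0.227% and 0.228% of gene counts in WT against 0.426% and 0.278% in KO2, and the annotated small nuclear RNAs held 0.0136% and 0.0132% in WT against 0.0326% and 0.0170% in KO2. KO2 replicate 1 had the highest share of both classes, as it had of *Rn7sk* and *Rpph1*. Among 35 tested protein-coding genes of that length 1 was called higher and 1 lower, with a median of 0.31. Among 218 tested long noncoding genes over 400 bases, members left out, 2 were called higher and 7 lower, with a median of 0.03. Over tested genes of all kinds the median was 0.59 for exons of up to 200 bases and 0.12 for 201 to 400 bases, and between -0.03 and 0.09 in the longer classes. *Rpph1* and *Rn7sk*, the called members, are annotated at 319 and 331 bases. *Terc*, with a value below 0, is annotated at 423 bases. That is just above the limit of 400 bases, so its length class rests on the annotated ends. RNA was isolated on silica columns, which retain short RNA less well than long RNA, and whether retention differed between samples was not tested.

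**Figure D4:**
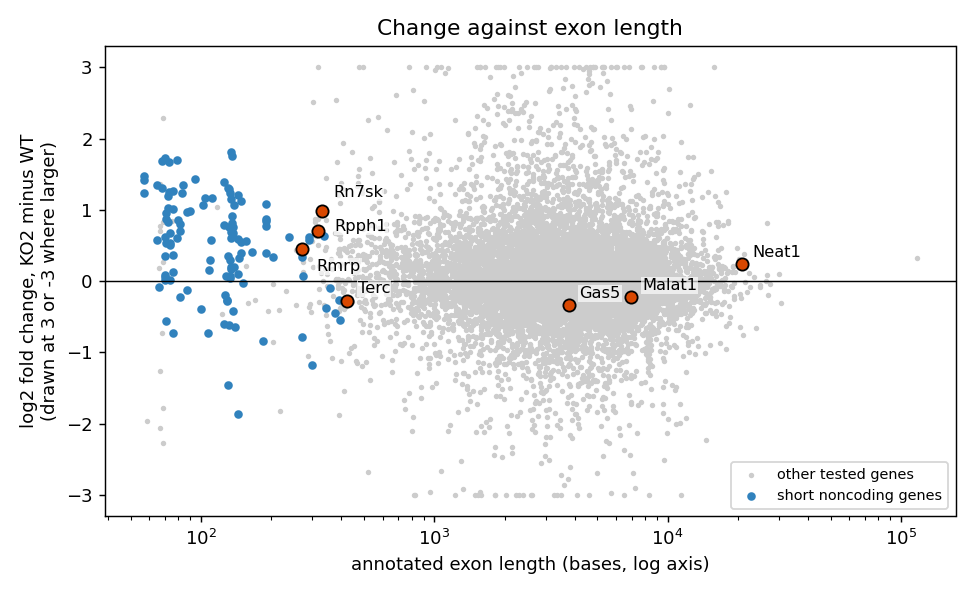
Log2 fold change (KO2 minus WT) of each tested gene with coordinates against its annotated exon length on a log axis, with the noncoding members named and 116 other short noncoding genes in blue. *Rn7sk*, *Rpph1* and *Rmrp* sit between 201 and 400 bases, where the median of other tested genes of all kinds was 0.12. The median of the blue points was 0.57. *Malat1* (-0.23), *Gas5* (-0.34) and *Neat1* (0.24) sit among long genes.

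The tested genes whose 4 values lay nearest to those of the 2 called RNAs, each centred on its own mean on the log2 CPM scale, were *Nphp4* for *Rn7sk* (root mean square distance 0.04) and *Reep5* for *Rpph1* (0.03), out of 12876 genes and over 4 samples. *Rpph1* and *Rn7sk* lay 0.16 from each other, and *Rmrp* lay 0.20 from *Rpph1* and 0.35 from *Rn7sk*. *Nphp4* (log2 fold change 1.11 ± 0.70 (SE), edgeR, adjusted p = 0.413) and *Reep5* (0.69 ± 0.32 (SE), edgeR, adjusted p = 0.241) were not called, and at between 1.49 and 4.69 CPM for *Nphp4* the pattern rests on few counts.

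The transcripts of proteins that work with *Rmrp*, *Rpph1* and *Rn7sk* were read from lists. Of 11 protein subunits of RNase P and RNase MRP, 0 were called in either direction by edgeR or DESeq2 and 3 had an unadjusted p under 0.05 in edgeR, which 19.4% of all tested genes had, with a median log2 fold change of 0.15 (0.01 over all tested genes) and values from -0.24 to 0.82. *Pop1*, the scaffold shared by both enzymes, was at 64.8 ± 2.1 CPM in WT against 81.0 ± 9.3 CPM in KO2 (SD, n = 2), and *Rpp30* was at 44.8 ± 3.8 and 45.9 ± 3.1 CPM. Of 7 components of the 7SK particle and P-TEFb, 0 were called by either tool and 1 had an unadjusted p under 0.05, with a median of -0.08 and values from -0.38 to 0.09. *Larp7*, which binds the 3′ end of 7SK RNA, was at 213 ± 7.1 CPM in WT against 227 ± 17 CPM in KO2, and *Ccnt2*, a cyclin of P-TEFb, was at 224 ± 5.0 and 199 ± 19 CPM. Of 28 tested RNA polymerase III subunits and factors, 0 were called by either tool and 4 had an unadjusted p under 0.05, with a median of -0.12 and values from -0.57 to 0.60. *Ssb*, the La protein that binds the ends of polymerase III transcripts, had a log2 fold change of -0.23 ± 0.11 (SE), and *Bdp1*, a subunit of the initiation factor TFIIIB, -0.25 ± 0.12 (SE).

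Of 8 telomerase proteins, 0 were called by edgeR or DESeq2 and 2 had an unadjusted p under 0.05 in edgeR, with a median of -0.11, and *Dkc1*, the pseudouridine synthase that binds *Terc*, was at 415 ± 47 CPM in WT against 335 ± 20 CPM in KO2 (SD, n = 2). *Nhp2*, its partner, was at 96.0 ± 11 and 109 ± 5.1 CPM. Of 10 paraspeckle proteins 0 were called by either tool (1 at an unadjusted p under 0.05) and the median was -0.07, with *Sfpq* at a log2 fold change of 0.01 ± 0.10 (SE) and *Hnrnpk* at -0.03 ± 0.10 (SE), and of 5 speckle proteins 0 were called (0 at an unadjusted p under 0.05) and the median was -0.03, with *Srsf1* at -0.14 ± 0.10 (SE) and *Son* at 0.09 ± 0.10 (SE). Of 4 core proteins of box C/D snoRNA particles 0 were called (1 at an unadjusted p under 0.05) and the median was -0.20, with *Nop56* at -0.04 ± 0.10 (SE) and *Nop58* at -0.14 ± 0.12 (SE).

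Nonsense-mediated decay degrades the spliced RNA of *Gas5* and other snoRNA hosts. Of 10 tested decay factors, with a median of -0.20, 1 was called, *Upf3b*, which fell by 0.62 ± 0.14 (SE, edgeR, adjusted p = 0.0115) on the log2 scale, from 126 and 108 CPM in WT to 76.7 and 74.9 CPM in KO2. *Smg1* and *Smg5* were not called, with log2 fold changes of 0.20 ± 0.10 (SE) and 0.27 ± 0.12 (SE). Of 8 other tested snoRNA host genes, 0 were called by either tool and 1 had an unadjusted p under 0.05, with a median of 0.17, and *Zfas1* was at -0.22 ± 0.17 (SE) and *2410006H16Rik* at 0.31 ± 0.20 (SE).

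Other nuclear long noncoding RNAs included 2 of 7 tested that were called, both lower in KO2, and the median was -0.48. *Tug1* fell by 0.61 ± 0.13 on the log2 scale (SE, edgeR, adjusted p = 0.00653), from 184 and 172 CPM in WT to 110 and 124 CPM in KO2, and *Firre*, an X-linked RNA, fell by 0.65 ± 0.15 (SE, edgeR, adjusted p = 0.0163), from 83.9 and 86.2 CPM to 58.6 and 49.6 CPM. *Meg3* and *Xist* were not called, at -0.14 ± 0.16 and -0.11 ± 0.25 (SE). Over all 10 lists, 3 of 98 tested genes were called, or 3.06%, against 5.64% of all tested genes, and all 3 were lower in KO2. In edgeR without WT replicate 1, with ERCC scaling or without a filter, 0 of these genes were called. *Firre* also lost its call without scaling factors, without WT replicate 2 and without KO2 replicate 2 (edgeR, adjusted p = 0.0693, 0.0778 and 0.107), and *Tug1* without KO2 replicate 1 (edgeR, adjusted p = 0.0642).

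**Figure D5:**
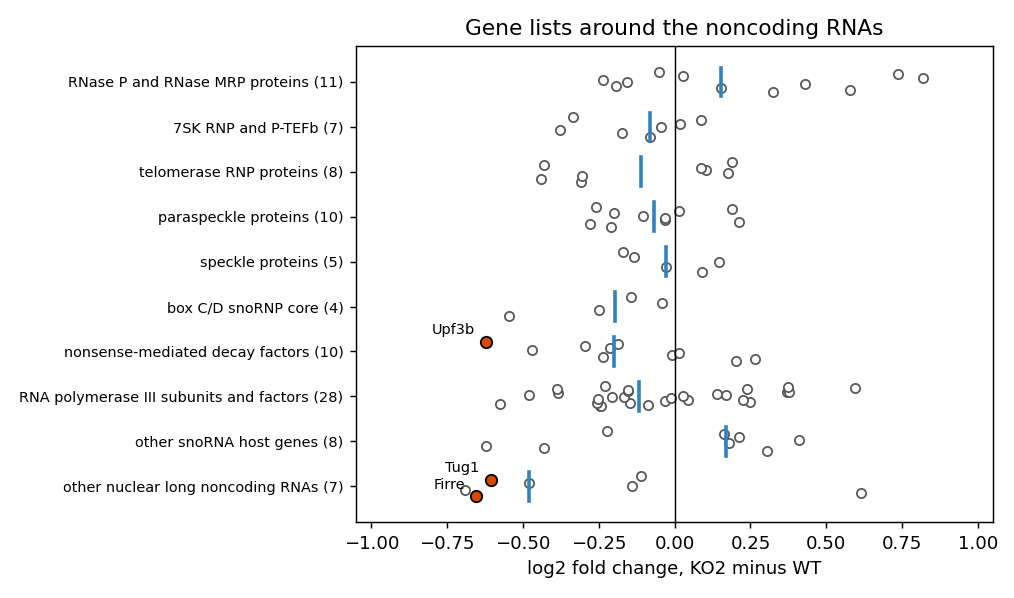
Log2 fold change (KO2 minus WT) of each tested gene in 10 lists around the noncoding RNAs, with the number tested in brackets, filled points for genes called at an adjusted p of 0.05 and a blue bar for the median of each list. *Upf3b*, *Firre* and *Tug1*, all below 0, were the genes called.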

How the data were processed

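The authors mapped reads to mm9 with HISAT2 and counted them per gene with HTSeq. The deposited values are raw counts, 1 column for each sample. Versions, annotation and strand setting are not given in the sources used here, and the submitters' processing notes also name DESeq2. HTSeq leaves out reads placed at several sites (35.6% to 40.4% of all reads listed), and the HTSeq summary rows together held 52.9% to 58.8% of them and stayed out of library sizes, as did 92 ERCC rows. Coordinates and overlaps came from the GENCODE annotation of mm9, which covers 32782 of 48526 rows, and sequences came from the mm9 genome. *Rmrp*, *Rn7sk* and *Terc* are listed there under family names, and *Rpph1* under neither its symbol nor a family name. These RNAs were matched by the genes on either side in RefSeq, the other 4 by symbol. Symbols of a list without a matched row were not analysed here, which holds for the lists of other polymerase III transcripts and other small nuclear RNAs as a whole.

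Counts were compared with edgeR 4.0.16 (R 4.3.3, limma 3.58.1; TMM, filterByExpr with 10 and 15 counts, quasi-likelihood fit and test with the group alone in the model), with Benjamini-Hochberg adjustment over all tested genes and a threshold of 0.05. Alternatives used other scalings, filters, DESeq2 1.42.0, a replicate block and leaving out each sample. Code was tested on simulated data. Shares were given with 95% Wilson intervals and compared by an exact permutation test in scipy 1.17.1. Named genes were the members, up to 4 called genes and the 2 most counted other genes of each list, the gene nearest in pattern to each called member, *Zfp296* and the ESC markers. Tested neural and endoderm markers were *Nes* and *Gata4*, neither called. Members and lists were chosen with earlier results of these data known. With 2 replicates of each group, p-values rest on the spread between these samples only, estimated for each gene with information shared over genes. The SE of *Rpph1* was 0.17 in edgeR and 0.43 with DESeq2, and that of *Rmrp* was 0.18 and 0.41.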

Additional observations from a re-analysis of the deposited data

How the results depend on the processing

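The number of all genes called was 727, and 163 with ERCC scaling, 61 without a filter, 454 with DESeq2 and 270 (without WT replicate 1) to 691 when 1 sample was left out. Of the 7 members 2 were called, and 0 with ERCC scaling, without a filter and with DESeq2, and 0 (without WT replicate 1) to 3 when 1 sample was left out. Of the genes in the lists 3 were called, and 0 with ERCC scaling and without a filter, and 0 (without WT replicate 1) to 4 when 1 sample was left out. Of the short noncoding genes 17 were higher, and 7 with ERCC scaling, 0 without a filter, 10 with DESeq2 and 5 to 29 when 1 sample was left out (5 without WT replicate 1, 7 without WT replicate 2). The cause was not tested. With 1 sample left out, 1 group holds a single sample, and the spread within that group is not measured. The difference in summed share ran from 0.181 to 0.543 percentage points when 1 sample was left out.

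In a fit that took the replicate number as a block, 950 genes passed and *Rmrp* passed (log2 fold change 0.52, edgeR, adjusted p = 0.0279), beside *Rn7sk* and *Rpph1*. Same-numbered samples did not deviate together over all tested genes (correlation -0.007). This value cannot show whether they share a preparation step, or whether a subset of genes deviates together.

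Signs turned for 7 genes that were not called when 1 sample was left out, with log2 fold changes from -0.058 (without WT replicate 2) to 0.58 for *Neat1*, -0.049 to 0.13 for *Rpp30*, -0.0028 to 0.030 for *Sfpq*, -0.098 to 0.015 for *Nop56*, -0.30 to 0.024 for *Nop58*, -0.54 to 0.37 for *Xist* and -0.20 to 1.65 for *Gata4*. *Hnrnpk* was at 0.068 and *Nop56* at 0.061 without scaling factors, and with ERCC scaling they were at 0.066 and 0.048 and *Xist* at 0.012. *Malat1*, *Gas5* and *Terc* stayed below 0 in all 13 alternatives. Without scaling factors the median of all genes moved to 0.11, and without a filter to 0.12. *Snhg3* was too shallow to be tested, and *Gata4* and *Nphp4* rest on few counts.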

Other observations

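Some short RNA rows that belong to no member and no list were measured as well, and are given as values that were looked up after the data had been seen. The annotation names 2 Y RNA rows on chromosome 6, which are polymerase III transcripts bound by the Ro protein. The first (ENSMUSG00000064945) held 118 and 162 counts in WT against 784 and 540 in KO2, with a log2 fold change of 1.07 ± 0.18 (SE, edgeR, adjusted p = 0.00133), and the call was lost in 2 of 13 alternatives. The second (ENSMUSG00000065701) held 19 and 34 counts in WT against 172 and 92 in KO2, with a log2 fold change of 1.16 ± 0.38 (SE, edgeR, adjusted p = 0.0883). The U6atac row (ENSMUSG00000080538), a small nuclear RNA of the minor spliceosome, held 21 and 31 counts in WT against 207 and 100 in KO2, with a log2 fold change of 1.40 ± 0.39 (SE, edgeR, adjusted p = 0.0417). This last call was lost in 7 of 13 alternatives, among them DESeq2 (adjusted p = 0.0867) and the fit without KO2 replicate 1, where the value was 0.83 (edgeR, adjusted p = 0.422). In all 3 rows both KO2 samples lay above both WT samples by CPM, with KO2 replicate 1 highest. Such an order was seen for 25.4% of all tested genes. A further 7SK row (ENSMUSG00000065911) held 70 and 60 counts in WT against 310 and 152 in KO2. Its groups overlapped by CPM, and it was not called (edgeR, adjusted p = 0.296). A further RNase P row (ENSMUSG00000087775) held 37 and 59 counts in WT against 197 and 132 in KO2. Its groups did not overlap by CPM, and it was not called (edgeR, adjusted p = 0.253). The mitochondrial ribosomal RNAs held 0.77% and 0.476% of gene counts in WT against 0.0576% and 0.326% in KO2, lowest in KO2 replicate 1.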
